A study of Homo sapiens with 12 samples.

Results

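The genes described here are 41 symbols whose proteins fold, modify, move or discard proteins in the endoplasmic reticulum (ER). They were listed by name, by a rule that uses no measured value, although earlier results of these data were known when the list was made. All 41 are among the 23368 symbols counted in SUDHL6. SUDHL6 is a widely used human line of germinal-centre-type diffuse large B-cell lymphoma, and GSK591 is a compound that blocks the arginine methyltransferase PRMT5. Poly(A)-selected RNA was sequenced. The 4 groups were 200 nM GSK591 for 96 h, vehicle (0.01% DMSO) for 96 h, 200 nM GSK591 for 24 h and vehicle for 24 h, with 3 samples each. All 4 groups are the same single line in culture, and the labels do not say that the 3 samples of a group were separate cultures, so the p-values reflect spread among these samples that could be purely technical. The series links PRMT5 with BCL6, a repressor that maintains the germinal centre state, and each drug comparison asks which of these transcripts differ from vehicle at the same time.

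Secreted and membrane proteins enter the ER through the SEC61 channel, lose their signal peptide, and are folded by the Hsp70 chaperone BiP (gene HSPA5), lectin chaperones and disulfide isomerases, while misfolded chains are sent back to the cytosol for degradation. Unfolded protein in the ER is sensed by IRE1 (gene ERN1), PERK (gene EIF2AK3) and ATF6. IRE1 splices the mRNA of XBP1, a transcription factor that raises many of these genes and is needed for the large secretory apparatus of plasma cells; counts per gene do not show that splicing. Germinal centre B cells, from which this lymphoma type derives, hold a small ER and express their immunoglobulin mostly on the surface.

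Depth was 48.5 to 64.4 M counts (M, mega) for all libraries but 1, the exception being vehicle replicate 1 at 96 h with 547.9 M, 10.2 times the median of the others. The B-cell markers MS4A1, CD79A, CD79B and PAX5 were at 188 CPM or more in every library, and summed to between 6178 and 7134 CPM in GSK591 cells and 6125 to 6541 CPM in vehicle cells at 96 h. The 8 markers of other lineages (CD3D, CD3E, CD14, LYZ, COL1A1, COL1A2, EPCAM and KRT18) were each at 1.25 CPM or less. Their sum at 96 h was 1.23 to 2.45 CPM in GSK591 cells and 0.329 to 0.939 CPM in vehicle cells. At 96 h 2 of the 8 were at 0 in all 3 GSK591 libraries against 1 of 8 in vehicle, which holds the deep library, so these counts of 0 are not comparable. Only 2 of the 8 could be tested at 96 h, with log2 fold changes of 0.79 and 1.64. Of these, 1 passed an adjusted p of 0.05 as higher with GSK591 in edgeR's test, against 20.7% of all tested genes. CPM values are counts scaled to a common library total, with TMM factors, over the 12 libraries, and no level below is corrected for transcript length unless that is said. Since whole cultures were sequenced, fewer cells expressing a gene and less RNA per cell cannot be told apart.

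Many ER chaperone genes carry a stress element before their start, to which ATF6 and XBP1 are known to bind. RefSeq sequence of the 250 bases before the start (GRCh38.p14) was matched for 37 of the 41 members. The ER stress element, searched on either strand as CCAAT, then 9 bases of any kind, then CCACG, was found in 6 of the 37 (16.2%), against 0.0916% of 27305 genes with such a window. A shorter second element, ATTGG, then any 1 base, then CCACG, was found in 3 other members (8.11%), against 0.0659% of all genes. The letters CCACG, which are part of both elements, were in 78.4% of the members and 37.5% of all genes. These sites are printed because members that hold them are later set against those that do not. Capitals mark the fixed letters of the element, and sites found on the strand opposite to the gene are printed in the element's own direction.
HSPA5: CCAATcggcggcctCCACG
PDIA6: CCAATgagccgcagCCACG
CRELD2: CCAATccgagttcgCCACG
CALR: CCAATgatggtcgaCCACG
CANX: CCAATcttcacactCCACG
HSP90B1, upstream site: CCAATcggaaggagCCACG
HSP90B1, downstream site: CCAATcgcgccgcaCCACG
HERPUD1: ATTGGgCCACG
SDF2L1: ATTGGtCCACG
HYOU1, both sites: ATTGGaCCACG

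The whole windows of 4 genes follow, as examples of called members that differ in their elements. HSPA5 (chr9:125241344-125241593, minus strand) holds the first element 66 bases before its start, and PDIA6 (chr2:10812786-10813035, minus strand) holds it at 86 bases. HERPUD1 (chr16:56931892-56932141, plus strand) holds the second element at 117 bases. EDEM1 (chr3:5187457-5187706, plus strand) holds neither in these letters. Each window is printed along the gene's own strand, 5′ to 3′, with the element in capitals.
HSPA5: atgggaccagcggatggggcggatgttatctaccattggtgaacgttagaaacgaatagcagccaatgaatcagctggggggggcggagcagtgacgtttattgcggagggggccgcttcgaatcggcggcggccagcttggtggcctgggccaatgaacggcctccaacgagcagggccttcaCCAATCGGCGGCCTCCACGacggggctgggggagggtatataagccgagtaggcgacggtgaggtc
PDIA6: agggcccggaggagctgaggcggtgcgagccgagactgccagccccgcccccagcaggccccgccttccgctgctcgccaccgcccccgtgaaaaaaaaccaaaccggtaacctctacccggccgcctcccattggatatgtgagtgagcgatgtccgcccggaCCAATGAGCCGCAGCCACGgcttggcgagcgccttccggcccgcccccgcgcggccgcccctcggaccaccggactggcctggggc
HERPUD1: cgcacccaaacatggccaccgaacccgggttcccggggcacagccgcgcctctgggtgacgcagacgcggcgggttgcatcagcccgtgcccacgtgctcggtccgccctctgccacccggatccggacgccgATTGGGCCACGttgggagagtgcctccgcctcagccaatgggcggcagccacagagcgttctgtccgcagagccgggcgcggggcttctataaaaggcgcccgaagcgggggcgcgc
EDEM1: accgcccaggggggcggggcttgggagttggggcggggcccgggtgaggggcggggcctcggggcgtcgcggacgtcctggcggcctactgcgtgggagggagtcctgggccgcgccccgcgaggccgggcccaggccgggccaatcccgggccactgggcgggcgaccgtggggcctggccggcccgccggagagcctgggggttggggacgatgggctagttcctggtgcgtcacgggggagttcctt

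After 96 h of GSK591, 14 of the 40 tested members were called, and they moved in both directions. EDEM1, SYVN1 and HERPUD1, which recognise, ubiquitinate and hand over misfolded ER proteins, rose by 27.8% to 34.1%. DNAJB9, a cofactor of HSPA5, was also called higher. HSPA5, the isomerases PDIA4 and PDIA6, the chaperone cofactors SDF2L1, MANF and CRELD2, and the prolyl isomerase FKBP11 fell, as did DERL3, a derlin of the export channel that is typical of secretory cells. The translocation genes SSR3 and SPCS1 were called lower too. In edgeR's quasi-likelihood test with Benjamini-Hochberg adjustment over all genes, a gene past 0.05 is called. At 96 h 4 of the 40 were called higher (10.0%) and 10 lower (25.0%), against 20.7% of all 13514 tested genes higher and 19.6% lower. In either direction that is 14 of 40, where the background was 40.2%; the count of falls was near the background and that of rises below it. The median log2 fold change over the 40 was -0.08, against 0.00036 over all genes. The 3 values of each group did not overlap for 4 members with GSK591 higher and 17 with GSK591 lower, against 25.0% and 29.7% of all genes.

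After 24 h the same 3 degradation genes were already higher and HSPA5, MANF, FKBP11 and DERL3 already lower, each by small amounts. At that time 3 of 40 members were called higher (7.5%) and 7 lower (17.5%), against 7.44% and 7.29% of 13173 tested genes (14.7% in either direction). Rises were thus at the background share and falls above it, with no test of the list made. The median over members was -0.03, against -0.00082 over all genes. Groups did not overlap for 6 members with GSK591 higher and 14 with GSK591 lower, where the shares over all genes were 15.7% and 16.2%. At 24 h the spread between samples was small, with a biological coefficient of variation of 2.35%, against 8.19% at 96 h. When the 24 h effect was taken from 1 fit of all 12 samples, with a shared spread, 0 members were called in either direction, and 29 of 13665 genes in all. In that fit 3 of 40 members were higher and 2 lower at an unadjusted p under 0.05, against 1578 of 13665 genes in either direction. DESeq2 on the 6 samples of 24 h called 3 members higher and 5 lower, and its share over all genes is not given.

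In all 17 members were called at 96 h or 24 h or both, 7 of them at both times and each of these in the same direction. The 2 times have separate vehicle samples, so these calls share no library. The same overlap was not counted over all genes, so it only describes the list. CREB3L2, an ER-tethered transcription factor, had 0 counts in all 12 libraries and was not tested; a count of 0 allows up to 0.00548 CPM in the deepest library and 0.0619 CPM in the shallowest, for counting error only. TXNDC5, a disulfide isomerase, had 6 to 24 counts in the 11 ordinary libraries and 169 in the deep one, under 0.5 CPM throughout, and passed the filter without being called. TXNDC5 overlaps BMP6 in RefSeq. Whether the low counts of TXNDC5 and CREB3L2 reflect expression or the way reads over overlapping annotation were counted was not tested. The other 39 members held at least 96 counts in every library.

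**Figure D1:**
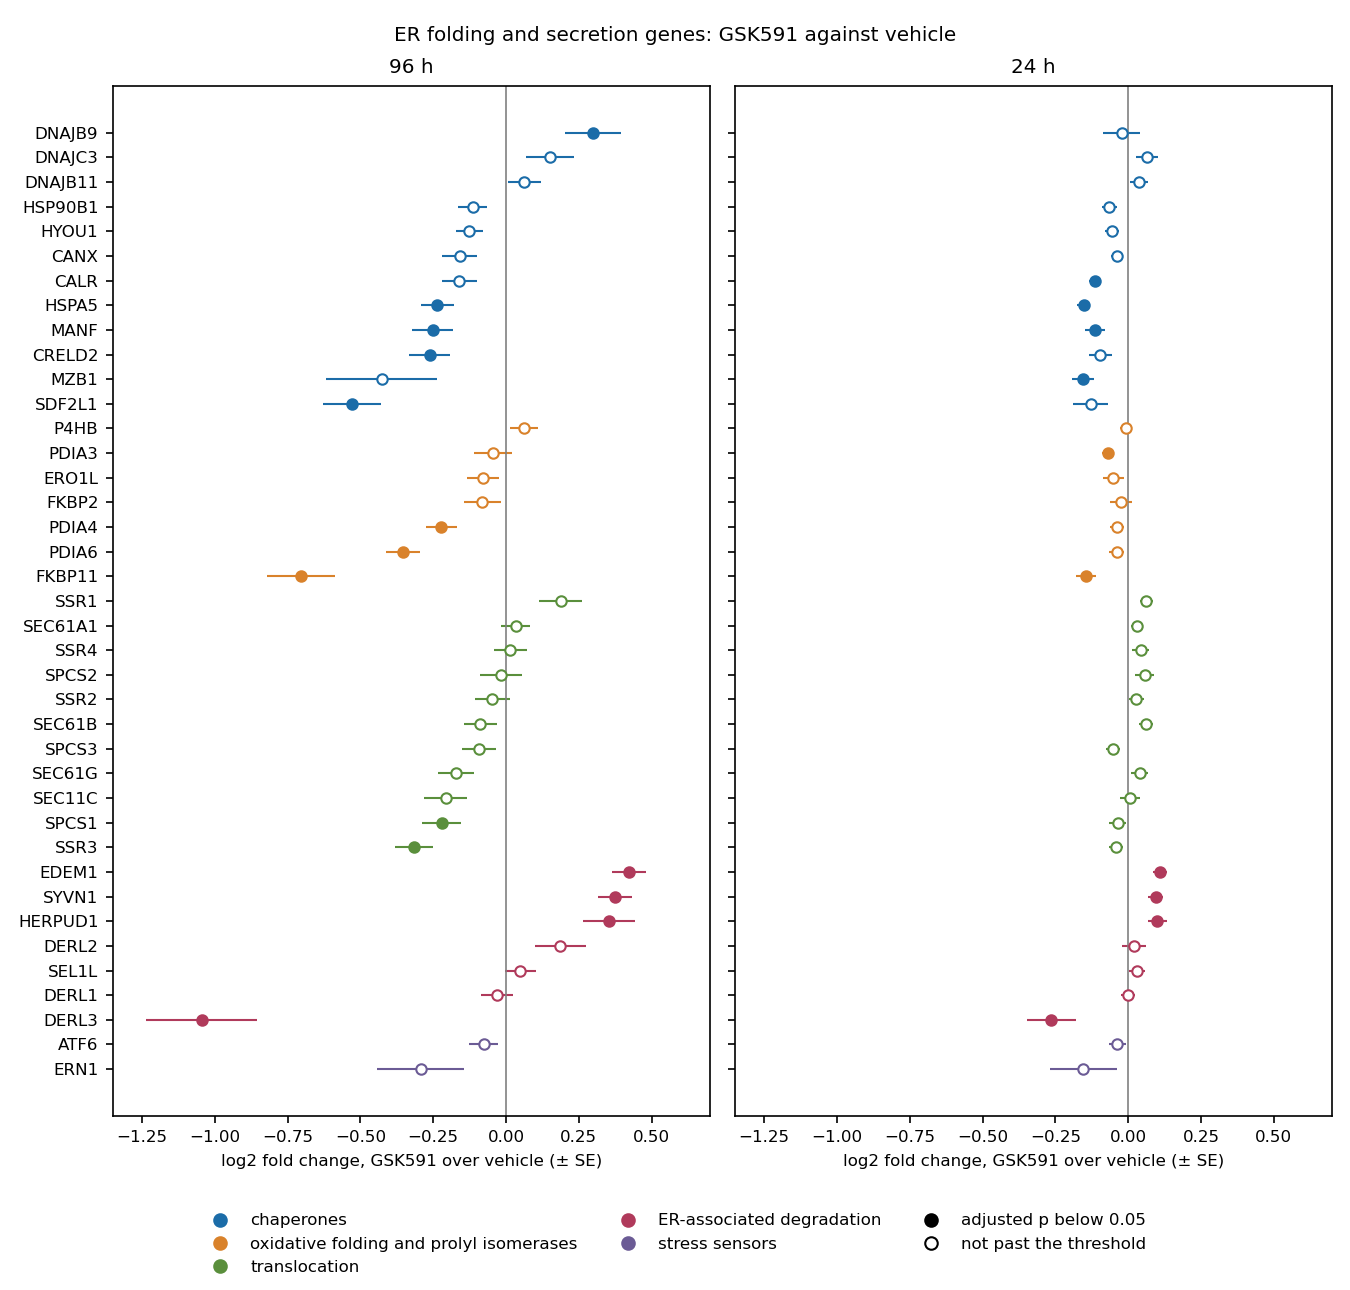
Log2 fold change of GSK591 over vehicle (x axis, ± SE, n = 3 per group) at 96 h (left) and 24 h (right) for 39 members, grouped by role; TXNDC5, with under 25 counts in most libraries, and CREB3L2, with none, are left out. Filled points passed an adjusted p of 0.05, 14 at 96 h and 10 at 24 h; EDEM1 lies at 0.42 and DERL3 at -1.05 at 96 h.

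Among the 7 genes of ER-associated degradation, 3 were called higher and 1 lower at both times. Over all genes 20.7% were called higher and 19.6% lower at 96 h, and 7.44% and 7.29% at 24 h. These shares are also the background of edgeR's calls in the other roles, and with 2 to 12 genes a role the counts are read as descriptions. For role counts at an unadjusted p or by DESeq2 the share over all genes is not given, so those counts have no background here. EDEM1, a mannosidase-like protein that marks misfolded glycoproteins, had 889, 932 and 847 CPM in GSK591 cells and 666, 677 and 667 CPM in vehicle cells at 96 h. All 3 treated libraries lay above all 3 vehicle libraries, and the log2 fold change was 0.42 ± 0.06 (SE, adjusted p = 0.00154). At 24 h EDEM1 had 539.7, 524 and 553 CPM in GSK591 cells and 506, 488 and 504 CPM in vehicle cells, again without overlap (0.11 ± 0.02, adjusted p = 0.00372). Per length of its longest annotated protein-coding transcript, EDEM1 ranked 3rd of the members in GSK591 cells at 96 h and 5th in vehicle cells at 96 h.

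SYVN1, the ubiquitin ligase HRD1 at the centre of this pathway, had 292, 318 and 292 CPM in GSK591 cells and 238, 228 and 237 CPM in vehicle cells at 96 h. The groups were separate (log2 fold change 0.37 ± 0.06 SE, adjusted p = 0.00234). At 24 h it had 272, 272 and 262 CPM in GSK591 cells and 244, 251 and 259.6 CPM in vehicle cells, a smaller gap that still left the groups apart (0.09 ± 0.03, adjusted p = 0.0158). HERPUD1, a membrane protein that brings substrates to HRD1, had 291, 223 and 282 CPM in GSK591 cells and 218, 205 and 205 CPM in vehicle cells at 96 h. GSK591 replicate 2 lay only just above the highest vehicle library (0.35 ± 0.09, adjusted p = 0.0146). The 24 h values of HERPUD1, 291, 278 and 309 CPM in GSK591 cells and 269, 267 and 282 CPM in vehicle cells, overlapped although the test passed (0.10 ± 0.03, adjusted p = 0.0344). The 24 h calls of both were lost when library size alone set the scale and without GSK591 replicate 1, vehicle replicate 1 or vehicle replicate 2. HERPUD1 also lost its 24 h call with a filter of at least 5 CPM and without GSK591 replicate 3, and it lost its call at 96 h without GSK591 replicate 1 or 3 or vehicle replicate 2 or 3.

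DERL3 moved the other way and had the largest fold change of the 41 members at 96 h. It had 2.76, 4.72 and 2.95 CPM in GSK591 cells and 7.35, 7.70 and 6.89 CPM in vehicle cells at 96 h. GSK591 replicate 2 was the highest of the treated libraries and still below every vehicle library (log2 fold change -1.05 ± 0.19 SE, adjusted p = 0.004). At 24 h DERL3 had 6.26, 6.94 and 5.70 CPM in GSK591 cells and 7.04, 8.43 and 7.33 CPM in vehicle cells (-0.26 ± 0.08, adjusted p = 0.038), with the groups just apart. That call was lost under DESeq2 and without vehicle replicate 2 or 3 or GSK591 replicate 1 or 3. DERL3 overlaps SMARCB1 in RefSeq, and the strand setting of the counting is not known; SMARCB1 moved in the opposite direction, by 0.18 ± 0.05 at 96 h (adjusted p = 0.0247) and 0.08 ± 0.02 at 24 h (adjusted p = 0.0164). Its relatives DERL1 and DERL2 and the HRD1 partner SEL1L were not called at either time, with log2 fold changes between -0.03 and 0.19 at 96 h.

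**Figure D2:**
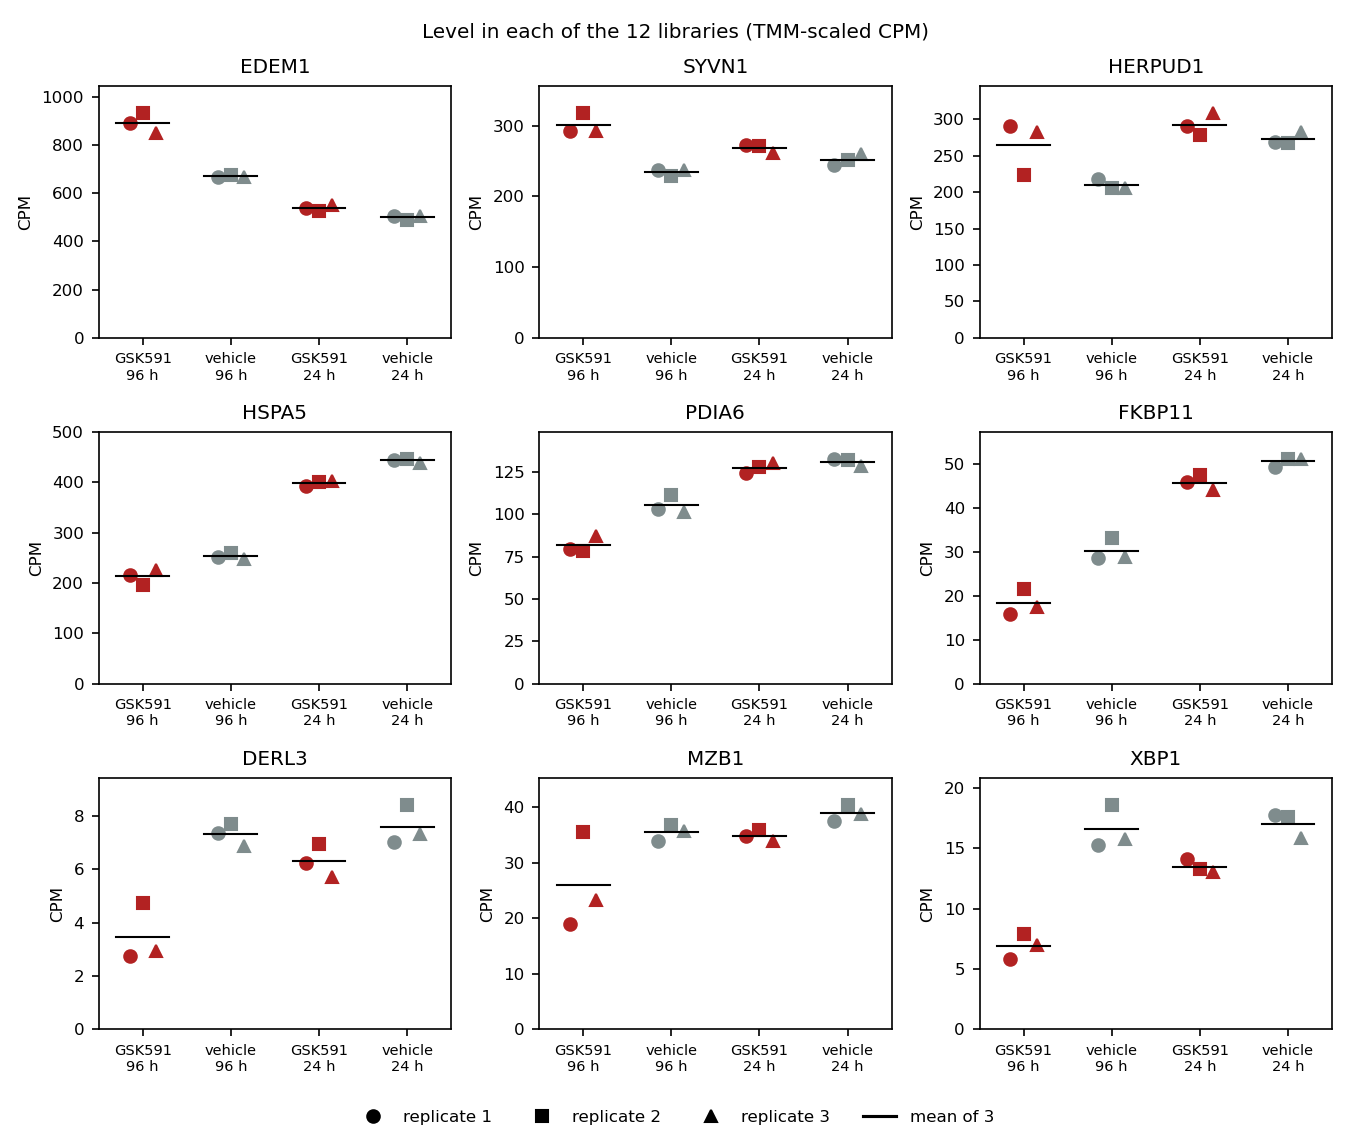
TMM-scaled CPM (y axis, from 0) of 8 members and XBP1 in each of the 12 libraries, with GSK591 and vehicle at 96 h on the left and at 24 h on the right of each panel; symbols mark the replicate number and bars the mean of 3. EDEM1 is highest in GSK591 cells at 96 h (847 to 932 CPM), and MZB1 shows 1 of 3 treated libraries at the vehicle level (35.5 CPM).

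Of the 12 chaperones and cofactors, 1 was called higher and 4 lower at 96 h, and 4 lower and none higher by edgeR at 24 h. At an unadjusted p under 0.05, 0 were higher and 8 lower at 24 h, and DESeq2 called 0 higher and 3 lower, both without a share over all genes to set them against. HSPA5, the ER Hsp70, had 217, 197 and 226 CPM in GSK591 cells and 251, 260.2 and 248.6 CPM in vehicle cells at 96 h. Every treated library was below every vehicle library (log2 fold change -0.24 ± 0.06 SE, adjusted p = 0.0125). At 24 h it had 391.9, 401 and 403 CPM in GSK591 cells and 445, 447 and 439 CPM in vehicle cells. The separation was wide for the spread within groups (-0.15 ± 0.02, adjusted p = 9.34e-05), and HSPA5 lost its 24 h call only in the fit of all 12 samples among the alternatives run. CALR, a lectin chaperone that binds sugar-bearing chains, had 639, 645 and 646 CPM in GSK591 cells and 703, 698 and 689 CPM in vehicle cells at 24 h (-0.11 ± 0.02, adjusted p = 0.000661). At 96 h CALR was also lower in every treated library, at 408, 368 and 429.9 CPM in GSK591 cells against 459, 459 and 443 CPM in vehicle cells, but was not called.

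SDF2L1, a partner of the cofactor DNAJB11, had 4.82, 5.45 and 5.52 CPM in GSK591 cells and 7.27, 7.85 and 7.99 CPM in vehicle cells at 96 h. Its groups were separate and its log2 fold change of -0.53 ± 0.10 (SE, adjusted p = 0.00434) was the largest fall among the chaperones called. MANF, a secreted protein that binds HSPA5, had 25.7, 26.6 and 29.6 CPM in GSK591 cells and 32.5, 34.8 and 31.3 CPM in vehicle cells at 96 h (-0.25 ± 0.07, adjusted p = 0.0214). At 24 h MANF had 38.1, 39.7 and 40.9 CPM in GSK591 cells and 42.6, 42.5 and 43.5 CPM in vehicle cells (-0.12 ± 0.03, adjusted p = 0.0293), with no overlap at either time. MANF lost its call at 96 h without vehicle replicate 1 or 2 or GSK591 replicate 1, and at 24 h under DESeq2 and without any of 4 libraries.

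CRELD2, another stress-induced secreted protein, had 21.2, 20.8 and 22.2 CPM in GSK591 cells and 25.9, 24.1 and 27.8 CPM in vehicle cells at 96 h (log2 fold change -0.26 ± 0.07 SE, adjusted p = 0.0187). Its call was lost without vehicle replicate 1 or 3 or GSK591 replicate 1. DNAJB9, an HSPA5 cofactor known to hold IRE1 inactive, was the chaperone that rose. It had 24.0, 18.3 and 23.5 CPM in GSK591 cells and 18.2, 17.8 and 17.8 CPM in vehicle cells at 96 h (0.30 ± 0.10, adjusted p = 0.0366). GSK591 replicate 2 was nearly at the vehicle level, and the call was lost under 7 of the alternatives, among them each of 5 single libraries left out.

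MZB1, a B-cell ER protein that helps assemble IgM, had 19.0, 35.5 and 23.3 CPM in GSK591 cells and 34.0, 36.8 and 35.6 CPM in vehicle cells at 96 h. Of the 3 treated libraries, 2 were well below vehicle and replicate 2 was level with it, and the gene was not called. Without GSK591 replicate 2 its log2 fold change was -0.74 ± 0.08 (SE, adjusted p = 0.000161 in edgeR's test). At 24 h MZB1 had 34.8, 35.9 and 33.8 CPM in GSK591 cells and 37.4, 40.4 and 38.8 CPM in vehicle cells, without overlap (-0.16 ± 0.04, adjusted p = 0.00818); that call was lost without vehicle replicate 2 or GSK591 replicate 3. The remaining chaperones HSP90B1, HYOU1, CANX, DNAJB11 and DNAJC3 were called at neither time, with log2 fold changes between -0.16 and 0.15 at 96 h.

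Among the 8 genes of oxidative folding and proline isomerisation, edgeR called 3 lower at 96 h and 2 lower at 24 h, and none higher. DESeq2 gave the same counts, and at an unadjusted p under 0.05 none was higher at 96 h and 1 at 24 h. PDIA6, a disulfide isomerase that also binds IRE1, had 79.3, 78.5 and 87.1 CPM in GSK591 cells and 103, 111 and 102 CPM in vehicle cells at 96 h. The groups were well apart (log2 fold change -0.35 ± 0.06 SE, adjusted p = 0.00272), while at 24 h its 3 treated values (125, 128 and 131 CPM) overlapped the vehicle values (133, 132 and 128 CPM). PDIA6 overlaps ATP6V1C2 in RefSeq, whose log2 fold change at 96 h was -0.32 ± 0.14 (adjusted p = 0.104). PDIA4, a disulfide isomerase of the HSPA5 chaperone complex, had 89.5, 89.6 and 97.5 CPM in GSK591 cells and 106, 113 and 106 CPM in vehicle cells at 96 h (-0.22 ± 0.05, adjusted p = 0.0114).

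FKBP11, a prolyl isomerase abundant in secretory tissues, had 15.9, 21.5 and 17.4 CPM in GSK591 cells and 28.6, 33.1 and 28.8 CPM in vehicle cells at 96 h. All treated libraries lay below all vehicle libraries (log2 fold change -0.70 ± 0.12 SE, adjusted p = 0.00274). At 24 h it had 45.7, 47.3 and 43.9 CPM in GSK591 cells and 49.3, 51.1 and 51.1 CPM in vehicle cells (-0.14 ± 0.03, adjusted p = 0.00687), a call lost without GSK591 replicate 3. PDIA3, the isomerase that works with CALR and CANX, had 428, 437 and 447 CPM in GSK591 cells and 462, 455 and 459 CPM in vehicle cells at 24 h (-0.07 ± 0.02, adjusted p = 0.0379). ELL3, which overlaps PDIA3 in RefSeq, was also called lower at 24 h (-0.10 ± 0.03, adjusted p = 0.0467). The fall of PDIA3 was lost when any 1 of 5 of the 6 libraries was left out, and at 96 h PDIA3 was not called. P4HB, TXNDC5, FKBP2 and the oxidase gene ERO1L were called at neither time.

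The 11 translocation genes form the SEC61 channel, the translocon-associated SSR complex and the signal peptidase. At 24 h none was called by edgeR or DESeq2, 2 were higher and 1 lower at an unadjusted p under 0.05, and their log2 fold changes ran from -0.05 to 0.06. At 96 h edgeR called 2 lower and none higher, DESeq2 3 lower and none higher, and at an unadjusted p under 0.05 there were 4 lower and 1 higher. SSR3, a subunit of the SSR complex, had 84.8, 91.8 and 93.0 CPM in GSK591 cells and 109.7, 122 and 107 CPM in vehicle cells (-0.32 ± 0.06 SE, adjusted p = 0.00609), with no overlap. Its partner SSR1 had 307, 250.02 and 289.6 CPM in GSK591 cells and 248, 259 and 243 CPM in vehicle cells, so that 2 subunits of 1 complex differed in sign, although SSR1 was not called. SPCS1, an accessory subunit of the signal peptidase, had 49.5, 45.9 and 53.4 CPM in GSK591 cells and 56.2, 62.5 and 56.4 CPM in vehicle cells (-0.22 ± 0.07, adjusted p = 0.0291). The call of SPCS1 was lost without any 1 of the vehicle libraries or without GSK591 replicate 1, and NEK4, which overlaps it in RefSeq, fell by 0.33 ± 0.10 at 96 h (adjusted p = 0.0301).

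Neither of the 2 tested sensors on the list was called by edgeR or DESeq2 for the drug at either time, nor was either at an unadjusted p under 0.05. ERN1, the gene of IRE1, had 1.85, 2.49 and 2.05 CPM in GSK591 cells and 2.49, 2.90 and 2.62 CPM in vehicle cells at 96 h, where the highest treated value met the lowest vehicle value and the groups overlapped (log2 fold change -0.29 ± 0.15 SE, adjusted p = 0.146). At 24 h it had 2.46, 2.27 and 2.18 CPM in GSK591 cells and 2.42, 2.89 and 2.39 CPM in vehicle cells (-0.15 ± 0.11, adjusted p = 0.404). ATF6 had 47.9, 44.6 and 46.3 CPM in GSK591 cells and 49.0, 49.2 and 49.7 CPM in vehicle cells at 96 h (-0.08 ± 0.05, adjusted p = 0.251). At 24 h ATF6 had 57.1, 55.6 and 56.1 CPM in GSK591 cells and 58.5, 57.8 and 56.9 CPM in vehicle cells (-0.04 ± 0.03, adjusted p = 0.433).

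Levels were also summed over each role, as a description without a test. The 7 degradation genes summed to 1700.3 ± 27.7 CPM in GSK591 cells and 1360.1 ± 8.52 CPM in vehicle cells at 96 h (SD, n = 3 each). EDEM1 alone was 889.6 ± 42.3 CPM of this in GSK591 cells and 670.1 ± 5.68 CPM in vehicle cells. The 12 chaperones summed to 1536 ± 81.1 CPM in GSK591 cells and 1727 ± 48.9 CPM in vehicle cells at 96 h. CANX was 490 ± 25.2 CPM of this in GSK591 cells and 553 ± 30.5 CPM in vehicle cells. CALR was 402 ± 31.3 CPM in GSK591 cells and 454 ± 9.11 CPM in vehicle cells, and neither gene was called at 96 h. HSPA5, which was called, was 213 ± 14.8 CPM in GSK591 cells and 253 ± 6.15 CPM in vehicle cells. The 8 oxidative folding genes summed to 912 ± 47.3 CPM in GSK591 cells and 975 ± 24.7 CPM in vehicle cells, and the 2 tested sensors to 48.4 ± 1.31 CPM in GSK591 cells and 52.0 ± 0.443 CPM in vehicle cells. The 11 translocation genes summed to 1202 ± 54.5 CPM in GSK591 cells and 1233 ± 43.6 CPM in vehicle cells, which is within the spread. Over all members the sum was 5398 ± 175 CPM in GSK591 cells and 5347 ± 120 CPM in vehicle cells at 96 h. At 24 h it was 6346 ± 51.5 CPM in GSK591 cells and 6421 ± 28.1 CPM in vehicle cells.

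**Figure D3:**
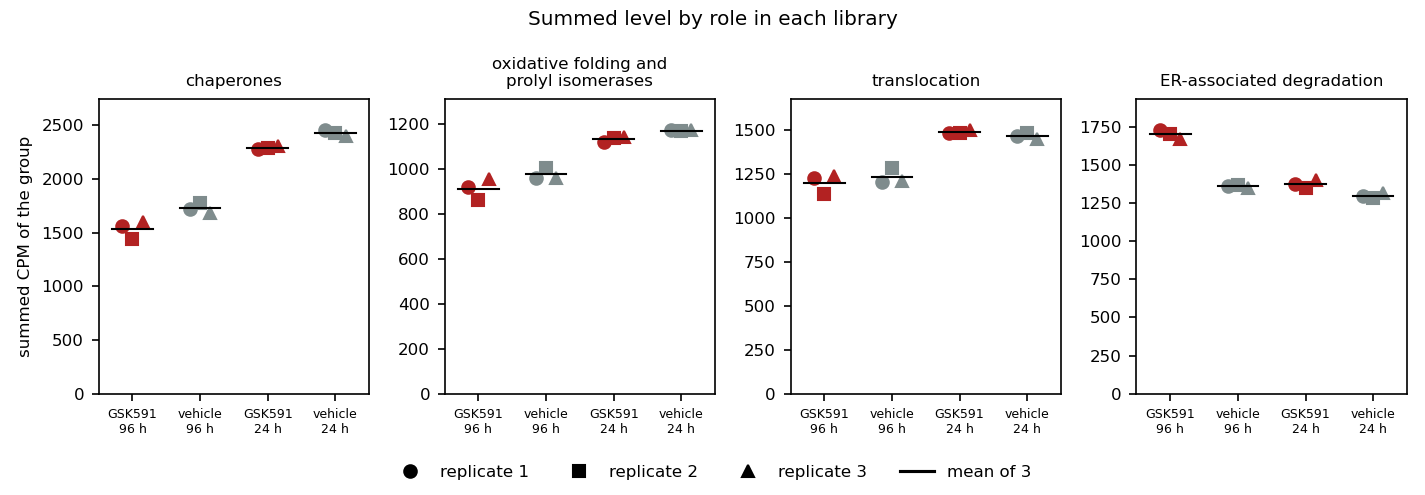
Summed TMM-scaled CPM (y axis, from 0) of the members in 4 roles in each library, with GSK591 and vehicle at 96 h on the left and at 24 h on the right; symbols mark replicate numbers and bars the mean of 3. The degradation sum is above vehicle in all 3 GSK591 libraries at 96 h (means 1700.3 and 1360.1 CPM), and the chaperone sum is below (means 1536 and 1727 CPM).

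Members with the first stress element printed above were compared with the other members that had a window, by counts and medians alone. At 96 h, of the 6 genes with that element, edgeR called 3 lower (HSPA5, PDIA6 and CRELD2) and none higher, with a median log2 fold change of -0.20. Of the 30 tested members whose window lacks it, 4 were called higher and 5 lower, with a median of -0.06. These 30 include HERPUD1, SDF2L1 and HYOU1, which hold the second element. With either element, 1 of 9 was called higher and 4 lower (median -0.16), against 3 and 4 of the 27 with neither (median -0.05). Except for PDIA6, the 6 genes are all chaperones, and the 12 chaperones had a median of -0.16 at 96 h. Element and role thus cannot be told apart here. Over all genes 20.7% were called higher and 19.6% lower. DERL3 and SPCS1, also called lower at 96 h, had no window and are in neither set. HERPUD1, with the second element, rose, while SDF2L1, with the same second element, fell. EDEM1 and SYVN1, which rose, and FKBP11, which fell, hold neither element in these letters within 250 bases. At 24 h the 6 genes had 2 lower (HSPA5 and CALR), none higher and a median of -0.08, against 3 higher, 3 lower and a median of 0.01 for the 30. The shares over all genes were then 7.44% higher and 7.29% lower. DERL3 and PDIA3, also called lower at 24 h, had no window.

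The effect at 96 h was set against the effect at 24 h in 1 fit of all 12 samples, which tests the change itself. In that test 2 of 40 members were called more positive at 96 h (5.0%) and 7 more negative (17.5%), against 11.0% and 13.2% of 13665 genes (24.1% in either direction). EDEM1 and SYVN1 gained, with changes of 0.30 ± 0.06 (SE, adjusted p = 0.00344) and 0.26 ± 0.06 (adjusted p = 0.00792) on the log2 scale. DERL3 (-0.79 ± 0.22, adjusted p = 0.0199), FKBP11 (-0.57 ± 0.12, adjusted p = 0.00584), SDF2L1 (-0.41 ± 0.11, adjusted p = 0.0174) and PDIA6 (-0.33 ± 0.07, adjusted p = 0.00471) became more negative. So did SSR3 (-0.29 ± 0.07, adjusted p = 0.0107), SEC61G, the small subunit of the channel (-0.23 ± 0.07, adjusted p = 0.0303), and PDIA4 (-0.20 ± 0.06, adjusted p = 0.027). The change was not called for HSPA5 (-0.10 ± 0.06, adjusted p = 0.296), ERN1 (-0.14 ± 0.18, adjusted p = 0.596) or ATF6 (-0.05 ± 0.05, adjusted p = 0.492). SEC61G lost its call when any 1 library of 24 h was left out, PDIA4 when any 1 of 5 libraries was, DERL3 for any 1 of 3 libraries of 24 h, and SDF2L1 without GSK591 replicate 2 of 24 h.

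Vehicle cells at 96 h held less of most of these transcripts than vehicle cells at 24 h. In that comparison 2 of 40 members were called higher at 96 h (5.0%) and 26 lower (65.0%), against 24.2% and 23.5% of all genes, and 47.7% in either direction. The median over members was -0.23, against 0.01 over all genes. Groups did not overlap for 2 members higher and 29 lower at 96 h, where the shares over all genes were 30.8% and 30.3%. The 2 times were deposited as separate tables, so time in culture and any difference in how the sets were handled cannot be told apart. These vehicle libraries are also the ones the drug effects above are measured against.

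HSPA5 had the largest of these falls. It had 251, 260.2 and 248.6 CPM in vehicle cells at 96 h against 445, 447 and 439 CPM in vehicle cells at 24 h, and the log2 change of -0.81 ± 0.05 (SE, adjusted p = 7.13e-08) stood beside drug effects of -0.24 at 96 h and -0.15 at 24 h, which share these vehicle libraries; their sizes were not tested against each other. FKBP11 (-0.75 ± 0.09, adjusted p = 1.16e-05), CALR (-0.62 ± 0.05, adjusted p = 5.03e-07), and SEC11C, a catalytic subunit of the signal peptidase (-0.56 ± 0.06, adjusted p = 5.92e-06), followed. HYOU1, an exchange factor of HSPA5 (-0.50 ± 0.04, adjusted p = 2.62e-07), SDF2L1 (-0.50 ± 0.08, adjusted p = 0.000117) and SEC61B (-0.45 ± 0.05, adjusted p = 4.06e-06) fell by similar amounts. The other 19 that fell, ATF6 and HERPUD1 among them, had log2 changes between -0.39 and -0.18. By role, 8 of 12 chaperones, 5 of 8 oxidative folding genes, 9 of 11 translocation genes, 3 of 7 degradation genes and 1 of 2 sensors were called lower, where the share over all genes was 23.5%.

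EDEM1 and DNAJB9 were the members higher in vehicle cells at 96 h than at 24 h. EDEM1 had 666, 677 and 667 CPM in vehicle cells at 96 h and 506, 488 and 504 CPM in vehicle cells at 24 h (log2 change 0.42 ± 0.04 SE, adjusted p = 2.9e-06). DNAJB9 had 18.2, 17.8 and 17.8 CPM in vehicle cells at 96 h and 14.5, 12.5 and 14.6 CPM in vehicle cells at 24 h (0.37 ± 0.09, adjusted p = 0.00476). ATF6 was lower at 96 h (-0.23 ± 0.04, adjusted p = 0.000218), and ERN1 was not called (0.04 ± 0.12, adjusted p = 0.802). Per kb of transcript, CALR was the most abundant member in vehicle cells at both times, with 238 CPM per kb at 96 h and 366 CPM per kb at 24 h.

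The libraries numbered 2 at 96 h stood somewhat apart. Among 39 members with a vehicle mean of at least 1 CPM, GSK591 replicate 2 was the lowest of the treated libraries for 28, the highest for 7 and between the others for 4. Among members called at 96 h, it lay nearest to vehicle of the treated libraries for DERL3, FKBP11, HERPUD1 and DNAJB9. It lay farthest from vehicle for EDEM1 and SYVN1, where it was the highest, and for HSPA5, PDIA6, CRELD2 and SPCS1, where it was the lowest. For SDF2L1, MANF, PDIA4 and SSR3 it was in the middle. Without that library, edgeR called 7 members higher and 14 lower, against 26.8% and 28.1% of all genes, and HSPA5 was at -0.19 ± 0.05 (SE, adjusted p = 0.00617). The log2 fold change of DERL3 was then -1.36 ± 0.10 (adjusted p = 4.01e-05), and that of ERN1 was -0.43 ± 0.13 (adjusted p = 0.0213). What sets these libraries apart was not tested.

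**Figure D4:**
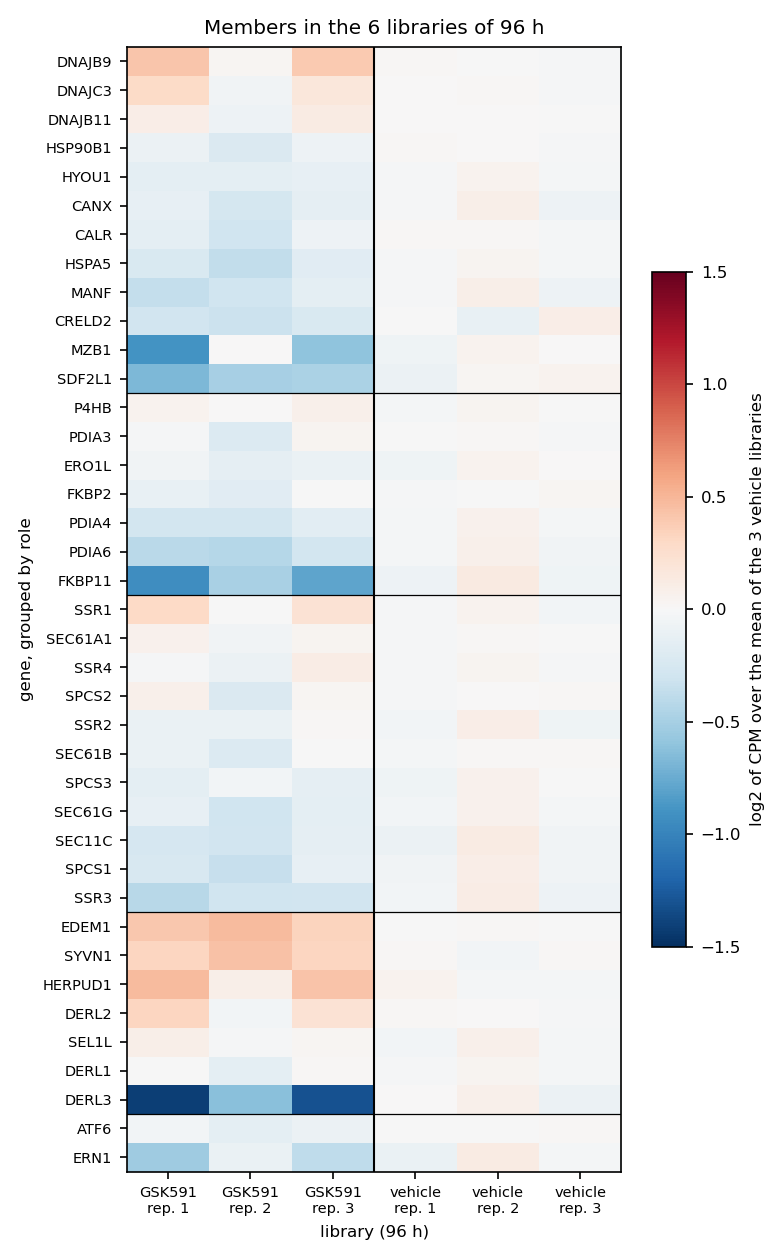
Log2 of CPM over the mean of the 3 vehicle libraries (colour) for 39 members (rows, by role) in the 3 GSK591 (left) and 3 vehicle libraries (right) of 96 h. EDEM1 and SYVN1 are above vehicle in all 3 treated libraries, while MZB1 is below it in replicates 1 and 3 and level with it in replicate 2 (19.0, 23.3 and 35.5 CPM).

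Of 100 tested genes of the same pathways outside the list, 19 were called higher and 15 lower at 96 h, against 20.7% and 19.6% of all genes, and 5 higher and 7 lower at 24 h. XBP1 had 5.80, 7.93 and 6.97 CPM in GSK591 cells and 15.3, 18.6 and 15.8 CPM in vehicle cells at 96 h. The highest treated library lay far below the lowest vehicle library (log2 fold change -1.24 ± 0.13 SE, adjusted p = 0.00055). At 24 h XBP1 had 14.1, 13.3 and 13.0 CPM in GSK591 cells and 17.7, 17.6 and 15.8 CPM in vehicle cells (-0.34 ± 0.05, adjusted p = 0.000393). Its change between the times was -0.91 ± 0.14 (adjusted p = 0.00117), and in vehicle cells XBP1 differed by -0.05 ± 0.10 between 96 h and 24 h (adjusted p = 0.715).

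EIF2AK3, the sensor PERK, rose at both times. It had 248, 194.5 and 234 CPM in GSK591 cells and 167, 157 and 163 CPM in vehicle cells at 96 h (log2 fold change 0.49 ± 0.08 SE, adjusted p = 0.00296), and a rise of 0.16 ± 0.03 at 24 h (adjusted p = 0.00426). ATF4, the transcription factor downstream of PERK, was not called at 96 h (-0.18 ± 0.07, adjusted p = 0.0587) or 24 h (-0.01 ± 0.02, adjusted p = 0.847). At 96 h it passed the threshold as lower under 7 of 15 alternatives, with adjusted p between 0.00518 and 0.144 over the 15. DDIT3, the stress factor CHOP, had -0.18 ± 0.08 at 96 h (adjusted p = 0.0954) and fell by 0.19 ± 0.05 at 24 h (adjusted p = 0.00871). TRIB3, a target of ATF4 and CHOP, fell by 0.67 ± 0.10 at 96 h (adjusted p = 0.00241).

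AUP1, which recruits a ubiquitin-conjugating enzyme to HRD1, rose by 0.70 ± 0.05 at 96 h (log2 ± SE, adjusted p = 0.000255) and by 0.21 ± 0.03 at 24 h (adjusted p = 3.92e-05). The conjugating enzyme UBE2G2 fell by 0.31 ± 0.09 at 96 h; of the 15 other degradation genes 4 were called higher and 1 lower. Among 23 other folding genes, 7 were called higher and 3 lower at 96 h, led by the oxidase ERO1LB (0.96 ± 0.09) and the isomerase FKBP9 (0.88 ± 0.20, at under 1 CPM), with PDIA5 (-0.85 ± 0.17) and ERP29 (-0.43 ± 0.07) lower. OSTC, a subunit of the oligosaccharyltransferase, fell by 0.42 ± 0.08, while UGGT1, the folding sensor of glycoproteins, rose by 0.24 ± 0.06. SEC61A2 rose by 0.45 ± 0.10 and the signal peptidase subunit SEC11A fell by 0.26 ± 0.07. Among 19 genes of ER exit and retrieval, 2 were called higher, with SEC24C at 0.31 ± 0.06, and 4 lower, with the cargo receptor LMAN1 at -0.22 ± 0.07 and KDELR2 at -0.21 ± 0.05. Of these genes at 96 h, UBE2G2, UGGT1, SEC11A and LMAN1 lost their calls when some 1 library was left out.

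Between vehicle cells at 96 h and at 24 h, 7 of these 100 genes were called higher at 96 h and 49 lower, against 24.2% and 23.5% of all genes, with a median of -0.12. SRPRB, a subunit of the signal recognition particle receptor, differed by -0.51 ± 0.05 (log2 ± SE, 96 h over 24 h) and PRDX4, an ER peroxidase, by -0.58 ± 0.05. TRIB3 differed by 0.89 ± 0.09 (adjusted p = 3.11e-06) and PPP1R15A, which reverses the stress block of translation, by -0.36 ± 0.04 (adjusted p = 8.19e-06). In the authors' deposited table for 96 h, 4 members were higher and 10 lower at an FDR below 0.05, and all 14 were among those called here. Over all 23368 symbols of that table, 5322 were below that FDR in either direction. In the authors' deposited table for 24 h, 1 member was higher and 8 were lower, 8 of them called here too, and 1811 of all 23368 symbols were below that FDR. HYOU1, SYVN1 and HERPUD1 were the members on which the calls differed.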

How the data were processed

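Files held raw read counts per gene symbol as deposited by the authors, with a separate table for each time. STAR, HTSeq, edgeR and the build hg19 (GRCh37) are named per the submitters' processing notes. For the software versions, annotation, strand setting and filters, nothing is given in the sources used here. Log2 fold changes, average log2 CPM and p-values with FDR were deposited by the authors for each time as well. Members and gene lists were chosen with earlier results of these data known. Genes were filtered with filterByExpr, scaled by TMM and tested with edgeR 4.0.16 (R 4.3.3), two-sided, adjusted over all genes, threshold 0.05, each time with its own 6 samples. The change of effect and vehicle over time came from 1 fit of 12 samples. SE is the log2 fold change over the square root of F. Fold changes use each fit's own scaling, so they can differ slightly from ratios of the CPM. Levels per kb use the longest protein-coding transcript of each symbol in GENCODE, which may not be the one expressed in these cells, and the ranks depend on that choice. Statistics were given for members called in a comparison and, always, for HSPA5, ERN1 and ATF6. From the pathway lists, XBP1, ATF4 and DDIT3 and genes among the 2 largest called in each direction per list were named; other names were chosen after their values were seen. The fits were tested on simulated counts. Replicates differed beyond sampling noise in all 12 pairs (chi-square per degree of freedom 2.26 to 41.9), which does not show that they were separate cultures. Each library was counted as 1 sample. Alternatives were RLE scaling, library size alone, no filter, at least 5 CPM in 3 samples, DESeq2 1.42.0, a replicate block, each library left out, both 96 h libraries numbered 2 left out, the deep library thinned and all 12 samples. In RefSeq (GRCh38), 12 members overlap another counted symbol. Promoters came from RefSeq; windows of PDIA3, SPCS1, DERL1 and DERL3 were not used here. Some genes that the rule or the marker list selects are not reported.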

Additional observations from a re-analysis of the deposited data

Results flagged for a closer look

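These 9 members had a drug effect at 96 h that differed from the effect at 24 h by edgeR's test of the difference itself, in 1 fit of 12 samples; each value is the log2 fold change at 96 h less that at 24 h. EDEM1 (0.30, adjusted p = 0.00344) and SYVN1 (0.26, adjusted p = 0.00792) rose more at 96 h. DERL3 (-0.79, adjusted p = 0.0199), FKBP11 (-0.57, adjusted p = 0.00584), SDF2L1 (-0.41, adjusted p = 0.0174), PDIA6 (-0.33, adjusted p = 0.00471), SSR3 (-0.29, adjusted p = 0.0107), SEC61G (-0.23, adjusted p = 0.0303) and PDIA4 (-0.20, adjusted p = 0.027) were more negative at 96 h. For SEC61G neither single effect was called, so the test of the difference is the only one it passed of the 3. The spread between samples was larger at 96 h than at 24 h (biological coefficient of variation 8.19% and 2.35%), and its part in these differences was not tested.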

How the results depend on the processing

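At 96 h the calls of HSPA5, SDF2L1, PDIA4, PDIA6, FKBP11, SSR3, SYVN1, EDEM1 and DERL3 held under all 15 alternatives run. For the members given with statistics in a comparison (those called there, with HSPA5, ERN1 and ATF6), 1129 of 1212 values kept direction and side of the threshold, 77 lost a call, 2 gained one and 4 changed sign; for the pathway genes chosen in the same way, 1090 of 1220 were kept, 105 lost a call, 14 gained one and 11 changed sign. The causes were not tested. At 24 h, library size alone gave 1 member higher and 11 lower. Over all genes 563 were then called higher and 1220 lower, so that 31.6% of calls were higher, against 50.5% with TMM. The 24 h effect from the fit of all 12 samples gave 0 and 0. At 96 h, all 12 samples gave 18 lower, a count without the share of all genes called lower in that fit. Leaving out both libraries numbered 2 gave 9 higher at 96 h, where 30.2% of all genes were called higher. For the change between times, leaving out both gave 6 more positive. For most other counts here the share of all genes called in the same fit is not given. Those counts show only how the number of called members moved. Deviations of same-numbered GSK591 and vehicle libraries correlated at 0.421, 0.297 and 0.0145 at 96 h and 0.0165, 0.203 and 0.0460 at 24 h, so the numbers were not taken as pairs; each treated library correlated best with its own number at 96 h, but not at 24 h. With the replicate block the change had 4 more positive; the 24 h counts were 4 higher and 8 lower and the 96 h counts 4 and 12. Leaving out 1 library at a time gave 2 to 7 higher and 7 to 14 lower at 96 h, 1 to 4 and 3 to 6 at 24 h, 2 to 6 and 3 to 11 for the change, and 2 to 3 and 25 to 30 in vehicle cells over time. The counts moved by over 1.5 times as follows. Rises at 96 h were 2 without GSK591 replicate 1 or 3 or vehicle replicate 2 or 3, and 7 without GSK591 replicate 2. At 24 h, rises were 1 without GSK591 or vehicle replicate 1, and falls 4 without GSK591 replicate 1 or 3 or vehicle replicate 3 and 3 without vehicle replicate 2. For the change, 6 were more positive without GSK591 replicate 2 at 96 h; 11 were more negative without GSK591 replicate 3 at 96 h, 4 without vehicle replicate 1 at 24 h and 3 without GSK591 replicate 2 at 24 h. Signs turned for values that were not called. The change of DDIT3 became 0.0287 with library size alone, 0.0130 with at least 5 CPM and 0.0831 without both libraries numbered 2, and ran from -0.0517 to 0.0492 with 1 library left out. In vehicle cells over time, XBP1 became 0.00864 with library size alone (-0.137 to 0.0144 with 1 library left out). ERN1 became -0.0249 with the deep library thinned and -0.0237 without both libraries numbered 2 (-0.0158 to 0.135 with 1 left out), and ATF4 became -0.0599 without both numbered 2 (-0.0608 to 0.0435 with 1 left out). The added fits of pathway genes and of all 12 samples per member were chosen after seeing the data. Low counts limit CREB3L2, TXNDC5 and also ERN1 (96 to 169 counts in the libraries of ordinary depth), whose 24 h log2 fold change of -0.15 had an SE of 0.11, against 0.02 for the same fold change of HSPA5.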

Other observations

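Over the 12 libraries, the genes whose log2 CPM followed HSPA5 most closely were CALR (Pearson r = 0.998), HYOU1 (0.994), ATP2A2, the calcium pump of the ER (0.993), PRPF19 (0.993) and C17orf96 (0.993), of 13665 genes. The libraries share their time and treatment, and fall into separate levels by time, so these values are a description and carry no p. Per kb of transcript, HSPA5 ranked 11th of the members in GSK591 cells at 96 h, 10th in vehicle cells at 96 h and 6th in vehicle cells at 24 h.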
